A study of Mus musculus with 8 samples.

Results

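Interferon-stimulated genes are the genes that a cell switches on when it senses interferon, and 39 of them were followed here in mouse embryonic fibroblasts, connective tissue cells grown from embryos, that carried or lacked an intact Rora gene and had or had not received doxorubicin. A gene was kept when a probe named for it in the platform annotation was above background on at least 2 of the 8 arrays. That held for 28 of the 39 genes and for 43 of their 62 probes, out of 9340 genes and 12362 probes tested in all. Of the other genes, Ifi44 had no probe named for it here, and 10 had a probe that stayed below the rule. These were Trim25 (above background on 1 array) and Ifit1, Oas1a, Oasl1, Ifih1, Iigp1, Isg20, Rtp4, Xaf1 and Parp9 (above background on 0 arrays). Irf7, Dhx58, Mx2 and Cmpk2 sat just inside the rule, because only the 2 arrays of wild type cells after doxorubicin detected them. These 4 genes therefore had to differ between groups. Oasl2 and Rsad2 were detected on wild type arrays alone, so they had to be lower in staggerer cells. Trim25, just outside, had levels from 4.75 to 6.04 on the log2 scale over the 8 arrays. Of the 28 genes, 19 were above background on all 8 arrays.

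Messenger RNA was measured on one-colour Illumina bead arrays in 4 groups of 2 arrays: wild type and staggerer fibroblasts of the C57BL/6J background, each left untreated or treated with doxorubicin for 12 h. Staggerer is a mouse mutation that deletes part of Rora, which encodes the nuclear receptor RORα, and doxorubicin is a chemotherapy drug that traps topoisomerase II on DNA and so causes strand breaks. The labels do not give the dose, nor do they state if arrays of 1 group are separate cultures, so p-values measure only array-to-array spread, possibly technical. The number of cell isolates behind a genotype is not given either, so genotype and isolate cannot be told apart. Levels are background-corrected, quantile-normalized log2 intensities, changes are differences of group means on that scale with their standard error (SE), n is 2 arrays in each group, and adjusted p-values are from limma over the 9340 genes, with a threshold of 0.05.

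The staggerer arrays after doxorubicin stood apart from the other 6. They detected 9576 and 9246 probes, against 10942 to 11572 on the others, and the median log2 signal of their tested probes before normalization was 7.64 and 7.55, against 8.61 to 9.11. The lowest signal that counts as detected, after normalization, was 6.69 and 6.85 there and 5.92 to 6.13 elsewhere. Among the 28 interferon-stimulated genes, 24 and 23 were detected on the untreated wild type arrays, 28 and 28 after doxorubicin, 22 and 21 on the untreated staggerer arrays, and 20 and 19 after doxorubicin. Of 10 fibroblast marker genes, 10 were detected on each wild type array, 9 on each untreated staggerer array, and 8 and 9 on the staggerer arrays after doxorubicin. After doxorubicin in wild type cells, 8 of these 10 were lower and 0 higher (limma), beside 30.5% and 26.4% of all genes. In staggerer cells 3 were higher and 3 lower, near the 31.8% and 33.3% of all genes. In untreated staggerer cells 1 was higher and 4 lower than in wild type cells, beside 6.68% and 6.27% of all genes. Fap, among the 4, had to be lower, since only wild type arrays detected it. For Rora, the gene of the mutation, the untreated staggerer level minus the wild type level was -1.33 ± 0.17 (limma adjusted p = 0.00222), and where its probe lies relative to the deletion was not determined. The scaling between arrays set the balance of rises and falls over all genes. After doxorubicin in staggerer cells, 48.8% of called genes were higher with quantile normalization, 66.6% with median centring and 16.7% with no between-array normalization. For the difference between genotypes after doxorubicin these shares were 44.8%, 59.1% and 20.1%.

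Type I interferons bind a receptor that activates JAK kinases, which phosphorylate STAT proteins. STAT2 and IRF9 are parts of ISGF3, a factor that binds the interferon-stimulated response element (ISRE) in target promoters. Interferon gamma signals instead to the gamma-activated site (GAS), and IRF1, itself a target, binds ISRE-like sequence. The products block viral entry, translation and replication, mark proteins with ISG15, or damp the signal. Damaged or displaced DNA can engage nucleic acid sensors that lead to interferon production, which is one reason why these genes are followed after DNA-breaking drugs.

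The promoters of 4 genes are shown because ISGF3 binds the ISRE and because these genes differed in how they responded. All 4 were picked with an ISRE match, which 15 of the 30 genes with a promoter had. Each runs from 250 bases before to 50 bases after an annotated start, 5′ to 3′ on the gene's strand, taken from RefSeq (GRCm38.p6). Capitals mark matches on either strand to the ISRE, searched as GAAA, any 2 bases and GAAA again (overlapping matches run together), and, in Igtp, also to the GAS, searched as TTCNNNGAA. The windows are Isg15 at chr4:156200769-156201068 (minus strand), Gbp3 at chr3:142559794-142560093 (plus strand), Igtp at chr11:58199306-58199605 (plus strand) and Ifit3 at chr19:34583279-34583578 (plus strand).
Isg15: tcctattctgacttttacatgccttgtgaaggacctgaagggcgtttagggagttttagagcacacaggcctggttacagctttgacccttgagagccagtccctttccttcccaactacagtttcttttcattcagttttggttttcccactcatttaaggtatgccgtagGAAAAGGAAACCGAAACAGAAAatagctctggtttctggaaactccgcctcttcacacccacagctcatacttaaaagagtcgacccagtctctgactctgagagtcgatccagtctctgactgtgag
Gbp3: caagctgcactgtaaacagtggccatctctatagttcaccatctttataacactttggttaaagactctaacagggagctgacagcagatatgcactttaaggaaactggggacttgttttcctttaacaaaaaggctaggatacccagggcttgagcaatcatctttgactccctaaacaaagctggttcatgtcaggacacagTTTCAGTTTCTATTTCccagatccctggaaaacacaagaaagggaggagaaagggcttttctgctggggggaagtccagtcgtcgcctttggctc
Igtp: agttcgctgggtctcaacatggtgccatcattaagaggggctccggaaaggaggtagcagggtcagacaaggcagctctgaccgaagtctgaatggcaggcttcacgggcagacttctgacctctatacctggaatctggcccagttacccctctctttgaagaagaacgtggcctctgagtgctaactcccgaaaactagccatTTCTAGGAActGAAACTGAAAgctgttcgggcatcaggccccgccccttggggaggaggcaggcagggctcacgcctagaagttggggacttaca
Ifit3: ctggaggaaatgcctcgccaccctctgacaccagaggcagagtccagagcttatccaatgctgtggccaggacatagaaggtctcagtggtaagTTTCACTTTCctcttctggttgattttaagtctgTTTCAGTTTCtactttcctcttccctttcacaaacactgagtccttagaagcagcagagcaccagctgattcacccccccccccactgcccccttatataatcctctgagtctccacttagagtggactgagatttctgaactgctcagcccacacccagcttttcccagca
Isg15, a ubiquitin-like modifier, had 3 overlapping ISRE matches that begin at positions -78, -72 and -66 from the start.

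Gbp3, a guanylate-binding protein, had 2 overlapping matches, and Igtp, an immunity-related GTPase, had 1 ISRE match beside 1 GAS match. Ifit3, which helps to bind viral RNA, had 2 separate ISRE matches. RefSeq promoters were matched for 30 of the 39 genes, 38 promoters in all. An ISRE match was found in 39.5% of these promoters and in 3.44% of all 32851 promoters of the same length, and a GAS match in 26.3% and 8.3%. Among the genes above background, 8 of the 14 with a promoter that were called higher after doxorubicin in wild type cells had an ISRE match, and so had 4 of the 8 that were not. Of the 7 genes with a promoter whose probes did not pass the background rule, 3 had an ISRE match. A match describes the letters only, and binding was not measured.

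In wild type fibroblasts, 12 h of doxorubicin came with higher levels of many interferon-stimulated genes. Of the 28, 19 rose, 3 fell and 6 did not pass the test, where 26.4% of all genes tested rose and 30.5% fell. The median log2 change of the 28 was 0.91 and that of all genes -0.08. With the 4 genes that only these arrays detected placed at their bound, the median of the 28 was 0.66. With the test limited to genes detected on all 8 arrays, 12 of 19 rose, but the share of all genes under that limit was not computed. Leaving out each array in turn gave 16 to 20 rises, and without replicate 1 of wild type doxorubicin 1 gene fell in place of 3. In the same comparison 8 of 10 fibroblast markers were lower, among them the growth factor receptor genes Pdgfra (-2.09) and Pdgfrb (-2.17) and the collagen gene Col3a1 (-1.38), and their part in the result was not tested. Of the 22 calls, 17 held in each such run, and those lost in some were Irf9, Irgm1, Cmpk2, Eif2ak2 and Ifitm3.

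**Figure D1:**
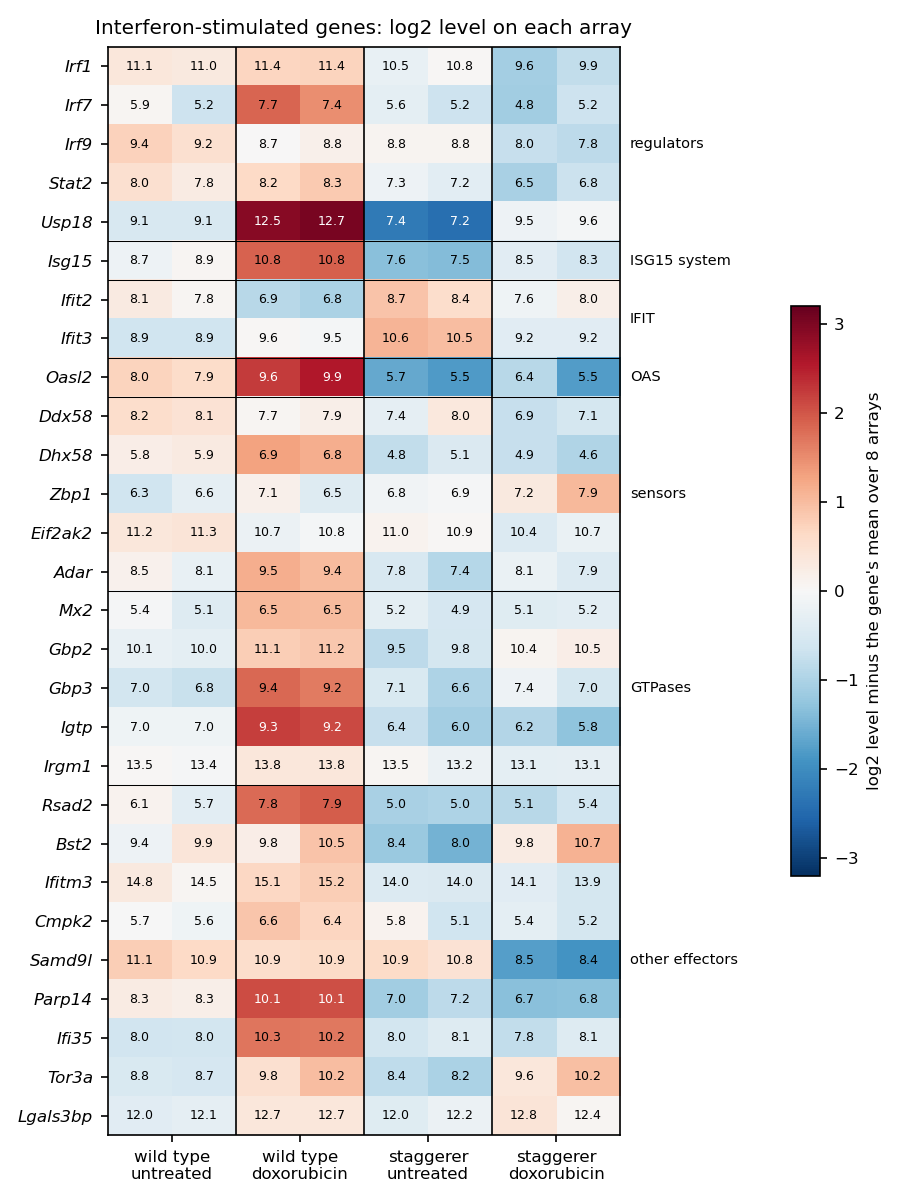
Levels of the 28 interferon-stimulated genes on each of the 8 arrays, as colours for the difference in log2 intensity from the gene's mean over arrays, grouped by the role of the product. Usp18 spans 7.21 to 12.67, its highest values being on both arrays of wild type cells after doxorubicin.

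Among the regulators, the steepest change was in Usp18, the protease that removes ISG15 from proteins and also blocks the type I interferon receptor. Usp18 levels were 9.12 and 9.11 in untreated wild type cells and 12.54 and 12.67 after doxorubicin. The treated arrays were far above the untreated ones, by 3.49 ± 0.12 (adjusted p = 1.815e-06). Another 2 Usp18 probes rose by 3.93 and 3.86. Irf7, the factor that amplifies transcription of interferon genes, was not above background in untreated wild type cells, at 5.92 and 5.22, and was at 7.74 and 7.36 after doxorubicin. The treated level was at least 2.78-fold higher (adjusted p = 0.000677), but Irf7 passed the background rule only through these treated arrays. Irf9, the DNA-binding subunit of ISGF3, moved the other way, from 9.41 and 9.19 to 8.68 and 8.85, a change of -0.53 ± 0.13 (adjusted p = 0.0102). That fall lost its call when either of 2 arrays was left out, with an adjusted p of up to 0.073, and with the mean of the gene's probes (-0.32, adjusted p = 0.134). The second Irf9 probe gave -0.10. Its partner Stat2 was at 8.02 and 7.78 untreated and 8.16 and 8.34 treated, groups that did not overlap but whose difference of 0.35 ± 0.16 did not pass the test (adjusted p = 0.103). Irf1, a factor best known as a target of interferon gamma, was at 11.08 and 11.03 and then at 11.41 and 11.45, a difference of 0.38 ± 0.15 (adjusted p = 0.0643). The other 3 Irf1 probes above background gave 0.84, 0.55 and 0.71, so the probe used here gave the smallest difference.

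Isg15 was at 8.72 and 8.95 in untreated wild type cells and at 10.78 and 10.80 after doxorubicin. It rose by 1.96 ± 0.14 (adjusted p = 3.08e-05), with the groups well apart. Oasl2, of the family that makes the second messenger of RNase L, rose by 1.75 ± 0.27, from 8.03 and 7.90 to 9.56 and 9.88. The IFIT genes split. Ifit3 rose by 0.63 ± 0.11, from 8.91 and 8.91 to 9.59 and 9.48, but 2 dimmer probes of Ifit3 gave 0.19 and -0.10. Ifit2, which like Ifit3 encodes a tetratricopeptide protein with antiviral activity, fell by 1.13 ± 0.18, from 8.09 and 7.85 to 6.90 and 6.78 (adjusted p = 0.00121), and its other probe fell by 0.95.

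The interferon-inducible GTPases, some of which attack the membranes around intracellular pathogens, rose in 5 of 5 genes above background, beside 26.4% of all genes. Mx2 is among the 5 and had to differ, since only the treated wild type arrays detected it. Gbp3 went from 6.95 and 6.84 to 9.39 and 9.21, a rise of 2.40 ± 0.20 (adjusted p = 6.58e-05). Igtp went from 6.99 and 6.99 to 9.33 and 9.25, a rise of 2.30 ± 0.17 (adjusted p = 3.46e-05). In both genes the treated arrays lay far above the untreated ones. Gbp2 rose by 1.11, and Mx2, a dynamin-like restriction factor, was at least 1.35-fold higher than on arrays where it was not above background. Irgm1 rose by 0.37 ± 0.13 on the probe used and by 1.19 on its other probe above background. Its call was lost without any of 4 arrays left out in turn.

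Of the nucleic acid sensors, 2 of 5 rose and 1 fell, shares not far from the 26.4% and 30.5% of all genes. Adar, which edits double-stranded RNA, rose by 1.16 ± 0.19, and Dhx58, a relative of RIG-I that tunes RNA sensing and that only these treated arrays detected, was at least 1.67-fold higher. Eif2ak2, the kinase PKR that halts translation on double-stranded RNA, fell by 0.51 ± 0.13, from 11.24 and 11.28 to 10.68 and 10.80. Ddx58, which encodes RIG-I, had a difference of -0.39 ± 0.20, and Zbp1, a sensor of Z-form nucleic acid, one of 0.34 ± 0.28. Neither passed the test.

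Among the other effectors, 7 of 9 rose, beside 26.4% of all genes. Cmpk2 is among the 7 and had to differ, since only the treated wild type arrays detected it. Ifi35, an interferon-induced leucine zipper protein, was at 7.95 and 7.97 untreated and at 10.27 and 10.24 treated, a rise of 2.29 ± 0.15 (adjusted p = 2.12e-05). Parp14, an ADP-ribosyltransferase, was at 8.31 and 8.26 and then at 10.14 and 10.14, a rise of 1.85 ± 0.13 (adjusted p = 2.51e-05). In both genes the arrays of a group lay far closer to each other than the size of the rise. Rsad2, which encodes viperin, rose by 1.99 ± 0.17, from 6.10 and 5.67 to 7.82 and 7.94. Its genomic neighbour Cmpk2, a mitochondrial nucleotide kinase, was at least 1.35-fold higher. Tor3a rose by 1.25, Lgals3bp, a secreted glycoprotein, by 0.69 and Ifitm3, which blocks viral entry, by 0.53. Samd9l, an antiviral protein that restrains translation, was at 11.08 and 10.94 untreated and at 10.88 and 10.93 treated, and did not pass the test (-0.11 ± 0.13, adjusted p = 0.499). Bst2, which encodes tetherin, had a difference of 0.45 ± 0.35, smaller than the gap between its own treated arrays at 9.77 and 10.46.

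In staggerer fibroblasts doxorubicin came with rises and falls in similar number. Of the 28 genes, 7 rose, 9 fell and 12 did not pass the test, shares near those of all genes tested, of which 31.8% rose and 33.3% fell. The median log2 change was -0.14, beside 0.02 for all genes. Irf7, Dhx58, Mx2, Cmpk2, Rsad2 and Oasl2 were not well above background in either staggerer group, so their changes there are not measured. The count of genes that fell was 5 without replicate 1 of staggerer doxorubicin. Median centring gave 16 rises and no between-array normalization gave 3, so the number of rises in these cells depends on the scaling.

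**Figure D2:**
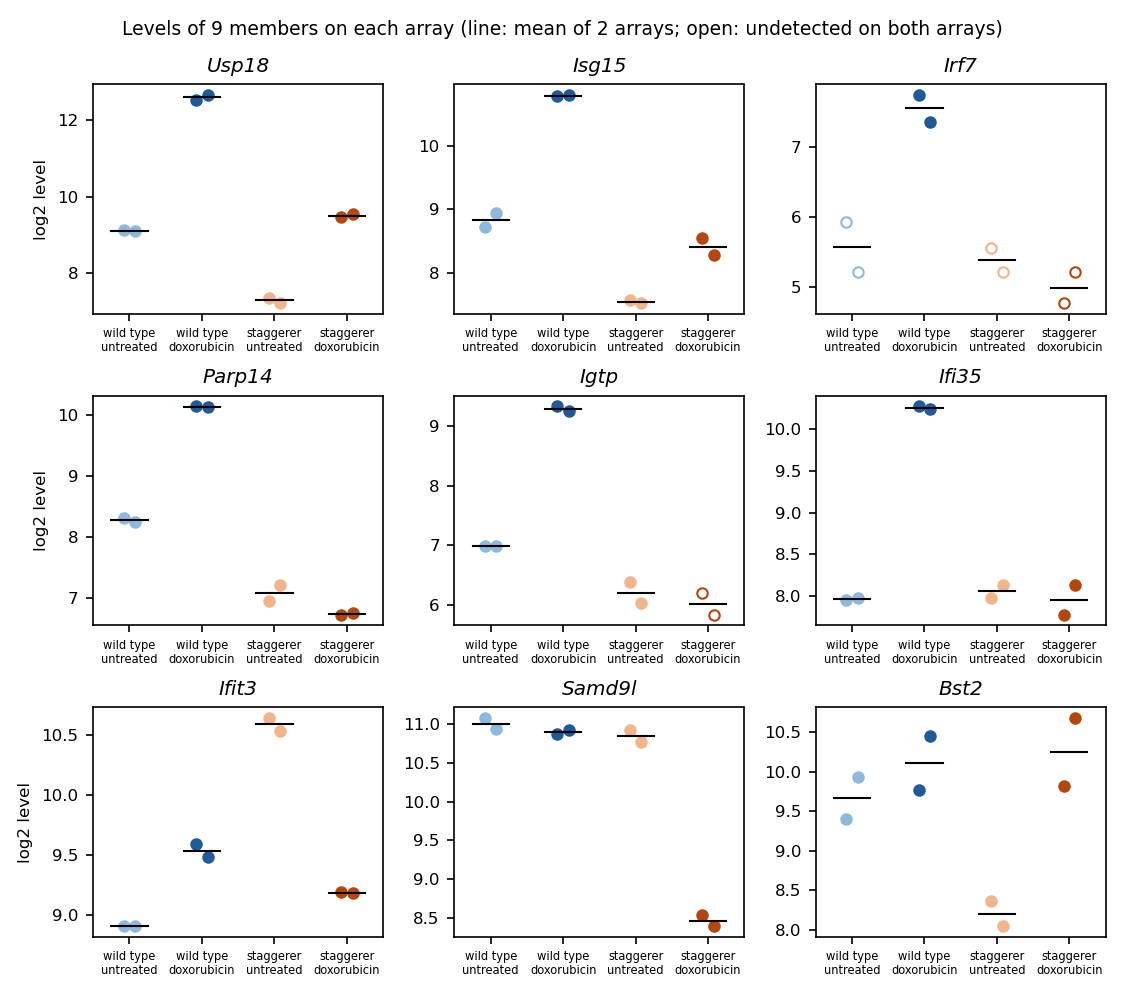
Log2 intensity of 9 interferon-stimulated genes in the 4 groups. Each point is 1 array and each bar the mean of 2. Usp18 and Isg15 are higher after doxorubicin in both genotypes, Ifi35, Igtp and Parp14 in wild type cells, and Samd9l drops in staggerer cells.

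Usp18 rose in staggerer cells too, from 7.36 and 7.21 to 9.47 and 9.56, by 2.23 ± 0.12 (adjusted p = 1.28e-05). Its treated level there stood close to the untreated wild type level of 9.12 and 9.11. Isg15 went from 7.56 and 7.52 to 8.54 and 8.27, a rise of 0.87 ± 0.14 (adjusted p = 0.00116), which became -0.14 with no between-array normalization, where the median of all genes was -0.56. Tor3a, a torsin ATPase family member, rose by 1.57, Bst2 by 2.05 and Gbp2 by 0.84. Bst2 levels were 8.36 and 8.04 untreated and 9.81 and 10.68 treated, without overlap (adjusted p = 0.00141). Lgals3bp rose by 0.52 and Zbp1 by 0.74, and both calls were lost without some of the arrays left out in turn, 2 for Lgals3bp and 5 for Zbp1. The direction of Zbp1 also flipped with no between-array normalization (-0.14).

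Samd9l, with the largest fall of the 28 genes, fell by 2.39 ± 0.13, from 10.93 and 10.78 to 8.53 and 8.39 (adjusted p = 1.2e-05). Ifit3 fell by 1.40 ± 0.11, from 10.64 and 10.54 to 9.20 and 9.18 (adjusted p = 4.84e-05). Its 2 other probes fell by 1.60 and 1.05. Of the regulators, Irf1 fell by 0.84 ± 0.15, from 10.50 and 10.76 to 9.64 and 9.95 (adjusted p = 0.00183). Other Irf1 probes gave -0.28, -0.16 and -1.21, the last with both treated arrays below background. Irf9 fell by 0.86 ± 0.13, from 8.76 and 8.75 to 7.95 and 7.84 (adjusted p = 0.000836). Stat2 was at 7.34 and 7.18 and then not above background, at least 1.41-fold lower (adjusted p = 0.0121). Both subunits of ISGF3 measured here were thus called lower. Ifit2 fell by 0.72 ± 0.18, Ddx58 by 0.67 ± 0.20 and Eif2ak2 by 0.40 ± 0.13. The calls of Stat2, Ifit2, Ddx58 and Eif2ak2 were lost in 1 to 3 of the 8 runs that leave out an array.

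Several genes with large rises in wild type cells gave small differences in staggerer cells. Ifi35 was at 7.98 and 8.14 untreated and at 7.78 and 8.14 treated, groups that overlapped (-0.10 ± 0.15, adjusted p = 0.565). Gbp3 was at 7.07 and 6.57 and then at 7.38 and 6.98, which also overlapped (0.36 ± 0.20, adjusted p = 0.156). Igtp, at 6.38 and 6.03, was not above background after treatment, at 6.20 and 5.84. Parp14 was at 6.96 and 7.22 and then at 6.73 and 6.75, a fall of 0.35 ± 0.13 that passed the test (adjusted p = 0.0434) but lost its call without 7 of the 8 arrays left out in turn.

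**Figure D3:**
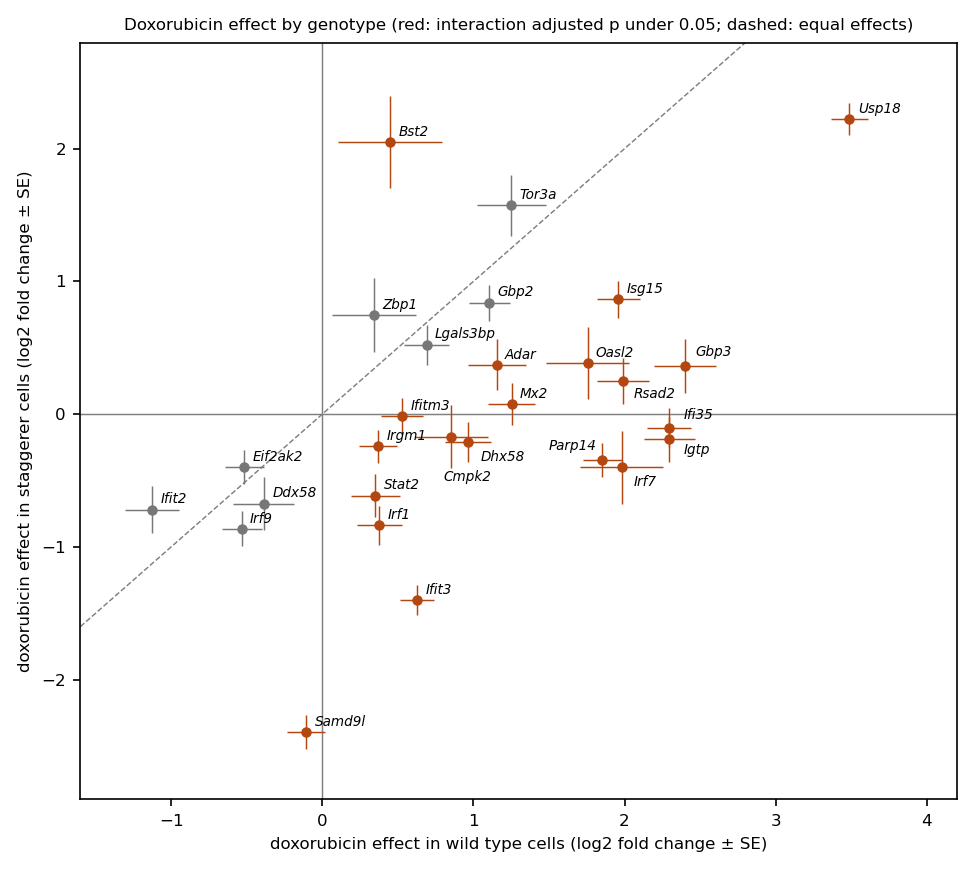
Log2 change after 12 h of doxorubicin in wild type cells (horizontal axis) against staggerer cells (vertical axis) for the 28 genes, with bars of 1 SE, and a dashed line of equal change. Red points passed the test of the difference between the responses and grey points did not. Usp18 lies far right and high (3.49 and 2.23), Ifi35, Igtp and Gbp3 lie far right near 0, and Samd9l lies low (-0.11 and -2.39). Points of genes below background in a group are fitted values.

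The test of the difference between these 2 responses called 19 of the 28 genes lower in staggerer and 1 higher, while 32.6% of all genes were called lower and 26.6% higher. With the test limited to genes detected on all 8 arrays, 10 of 19 were called lower, and the like share of all genes was not computed. The calls of Irf7, Dhx58, Mx2, Cmpk2, Rsad2, Oasl2, Igtp and Stat2 use signals below background in at least 1 staggerer group, so their differences are not measured ones. Among the genes above background in each group, the GTPases Gbp3 and Irgm1 differed by -2.04 ± 0.29 and -0.61 ± 0.18, and the regulators Usp18 and Irf1 by -1.26 ± 0.17 and -1.22 ± 0.21. Isg15 differed by -1.09 ± 0.20. The response of Irf9 did not differ by the test (-0.33 ± 0.19, adjusted p = 0.16). Ifi35 (-2.40 ± 0.21), Samd9l (-2.29 ± 0.18), Parp14 (-2.20 ± 0.18) and Ifit3 (-2.03 ± 0.16) had adjusted p-values from 0.000164 to 0.000196, and Parp14 was above background on 1 of the 2 staggerer arrays after doxorubicin. Bst2 was the gene called higher, at 1.60 ± 0.49 (adjusted p = 0.0243), and its call was lost without any of 3 arrays. Leaving out each array in turn gave 14 to 19 genes called lower, and the calls lost in some runs were those of Bst2, Adar, Cmpk2, Ifitm3, Irgm1 and Oasl2. Under median centring Ifitm3 and Irgm1 turned to 0.71 and 0.39, where the median of all genes was 0.29.

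Before any treatment, staggerer cells already had lower levels of part of the family. Of the 28 genes, 11 were lower and 1 higher than in wild type cells, against 6.27% lower and 6.68% higher among all genes, and 16 did not pass the test. The median difference was -0.42, beside -0.01 for all genes. The count of lower genes rested on each of the 4 untreated arrays. It was 4 and 5 without wild type replicate 1 and 2, and 5 and 6 without staggerer replicate 1 and 2. Calls of 5 genes held in each such run, those of Usp18, Isg15, Parp14, Oasl2 and Ifit3. Oasl2, and Rsad2 among the 11, passed the background rule only through wild type arrays, so their lower calls are no separate result.

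Usp18 was at 9.12 and 9.11 in wild type and at 7.36 and 7.21 in staggerer cells, a difference of -1.83 ± 0.12 (adjusted p = 0.000142). Isg15 differed by -1.29 ± 0.14, with wild type at 8.72 and 8.95 and staggerer at 7.56 and 7.52 (adjusted p = 0.0012). Oasl2 was not above background in staggerer cells, at 5.67 and 5.51, and was at least 3.59-fold lower than in wild type cells at 8.03 and 7.90 (adjusted p = 0.00151). Parp14 differed by -1.20 ± 0.13, Bst2 by -1.47 ± 0.35, Igtp by -0.79 ± 0.17 and Ifitm3 by -0.64 ± 0.14. The ISGF3 subunits Irf9 (-0.54 ± 0.13, adjusted p = 0.0364) and Stat2 (-0.64 ± 0.16, adjusted p = 0.0437) were called lower, and each lost its call without 6 of the 8 arrays left out in turn. Rsad2 and Dhx58 were also called lower (adjusted p = 0.0141 and 0.00917), but Rsad2 was not above background in staggerer cells and Dhx58 in neither genotype, so no fold is given. Irf1 and Irf7 did not pass the test (adjusted p = 0.111 and 0.726). The exception in direction was Ifit3, at 8.91 and 8.91 in wild type and 10.64 and 10.54 in staggerer cells, higher by 1.68 ± 0.11 (adjusted p = 0.000152). Its 2 dimmer probes were higher by 1.26 and 1.03.

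Macrophages express many interferon-stimulated genes, and their markers moved with genotype. Of 12 macrophage genes listed, 10 had a probe and 7 were tested. All 7 were lower in staggerer than in wild type cells when untreated and 5 after doxorubicin, beside 6.27% and 40% of all genes. C1qa, among the 7, had to be lower in untreated staggerer cells, since only the untreated wild type arrays detected it. Within staggerer cells, 5 of the 7 rose after doxorubicin and 0 fell, beside 31.8% and 33.3% of all genes. The summed linear signal of the list was 6278 to 6432 on untreated wild type arrays, 6093 to 6622 after doxorubicin, 1542 to 1610 on untreated staggerer arrays and 2899 to 3141 after doxorubicin. Lyz2, the macrophage lysozyme, differed by -2.06 between untreated genotypes and Fcer1g, an Fc receptor subunit, by -2.59, while Ptprc, Tyrobp and Itgam did not pass the background rule and Csf1r and Cd68 had no probe named for them here. Among fibroblast markers, Dcn, a matrix proteoglycan, differed by -2.65 and Pdgfra by -1.89 between untreated genotypes. Of the 10 markers, 4 were called lower there and 1 higher, Lum by 0.92. The rest, Col1a1, Col1a2, Col3a1, Pdgfrb and Vim, did not pass the test. The part of these cells and markers in the lower interferon-stimulated genes of staggerer cultures was not tested, and fewer cells of a type and less RNA per cell cannot be told apart in bulk RNA. Within wild type cells, the macrophage sums of treated and untreated arrays overlapped. The part of macrophages in the wild type response to doxorubicin was not tested. In wild type cells after doxorubicin, 1 of 7 macrophage genes was higher and 3 were lower, near the 26.4% and 30.5% of all genes. The higher one was Cd14, a co-receptor for lipopolysaccharide, by 2.02. C1qa, among the 3, had to be lower there for the same reason as above. Dendritic cell, lymphocyte and endothelial markers were detected for at most 1 gene of a list on any array, and these moved too. Zbtb46, a dendritic cell factor, was above background in wild type cells after doxorubicin alone. It passed the background rule only through those arrays, so it had to be higher there. Cd3e, a T cell receptor subunit, rose by 1.32 in staggerer cells after doxorubicin. Emcn, an endothelial sialomucin, was lower in untreated staggerer cells (adjusted p = 9.66e-05), but it passed the background rule only through wild type arrays. Their part in the results was not tested.

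After doxorubicin the genotypes differed in most of the family. Of the 28 genes, 22 were lower in staggerer cells, 2 were higher and 4 did not pass the test, while 40% of all genes were lower and 32.5% higher. The median difference was -1.40 (-0.83 with the 8 genes below background in staggerer cells at their bound), beside -0.14 for all genes. This comparison uses the dimmer staggerer arrays after doxorubicin. Of the 19 genes detected on all 8 arrays, 13 were called lower when the test was limited to such genes. The share of all genes called lower under that limit was not computed. Leaving out each array in turn gave 21 to 22 lower genes, and the calls lost in some runs were those of Zbp1, Ifit3 and Ddx58. Since the comparisons share arrays, their counts are not independent of each other.

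**Figure D4:**
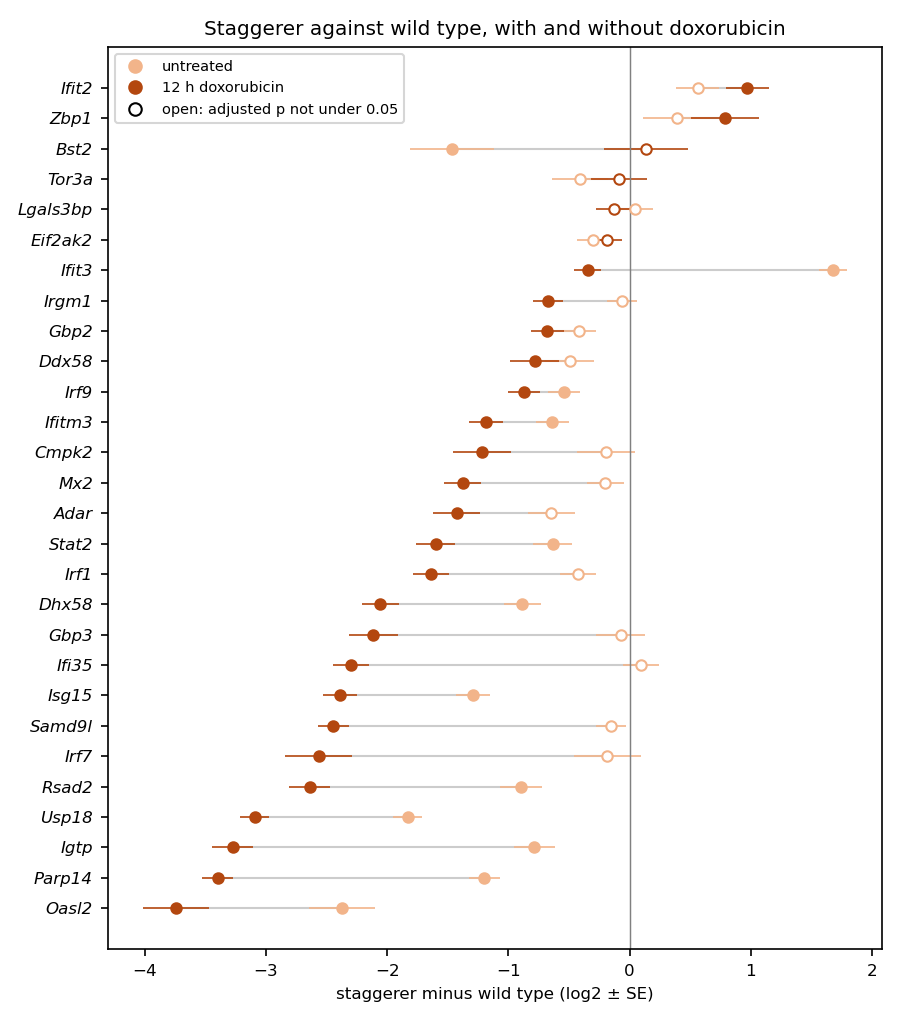
Log2 difference between staggerer and wild type cells for the 28 genes, untreated and after doxorubicin, with bars of 1 SE. Values below 0 mean a lower level in staggerer cells. Parp14 goes from -1.20 to -3.40, Usp18 from -1.83 to -3.09 and Ifit3 from 1.68 to -0.35.

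Parp14 had levels of 10.14 and 10.14 in treated wild type and of 6.73 and 6.75 in treated staggerer cells, a difference of -3.40 ± 0.13 (adjusted p = 4.99e-06). Usp18 differed by -3.09 ± 0.12 (adjusted p = 4.99e-06), with the genotypes at 12.54 and 12.67 against 9.47 and 9.56. Oasl2 was at least 7.72-fold lower and Igtp at least 5.73-fold lower in staggerer cells, where neither was above background. Oasl2 had to be lower, since only wild type arrays detected it. Isg15 differed by -2.39 ± 0.14, Samd9l by -2.44 ± 0.13, Ifi35 by -2.30 ± 0.15 and Gbp3 by -2.12 ± 0.20. All 5 regulators were called lower, but Irf7 had to differ, since only the treated wild type arrays detected it. Irf1 differed by -1.64 ± 0.15 (adjusted p = 4.86e-05) and Irf9 by -0.87 ± 0.13 (adjusted p = 0.000599), while Stat2 was at least 2.79-fold and Irf7 at least 1.71-fold lower (adjusted p = 8.11e-05 and 0.000106). Rsad2 was at least 2.15-fold and Dhx58 at least 1.03-fold lower. Mx2 and Cmpk2 were called lower with no fold, because the limit of detection on the staggerer arrays lay above their wild type level.

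The GTPases were lower in 5 of 5 genes, the sensors in 3 of 5 and the other effectors in 6 of 9. Among all genes, 40% were lower in this comparison. Mx2, Dhx58 and Cmpk2 are in these counts and had to differ, since only the treated wild type arrays detected them. Rsad2, among the other effectors, had to be lower too, since only wild type arrays detected it. Ifit2 and Zbp1 were the genes called higher, by 0.97 ± 0.18 and 0.79 ± 0.28, and they turned to -0.08 and -0.22 with no between-array normalization, where the median of all genes was -0.80. Under median centring, where that median was 0.27, Ifitm3 turned from -1.18 to 0.14 and Irgm1 from -0.68 to 0.44. Ifit3 was lower by a difference of -0.35 ± 0.11, the reverse of its order in untreated cells. Its dimmer probes, below background on the treated staggerer arrays, gave -0.54 and 0.07. Bst2, Tor3a, Lgals3bp and Eif2ak2 did not pass the test (adjusted p = 0.741, 0.752, 0.477 and 0.216). For Bst2, wild type levels were 9.77 and 10.46 and staggerer levels 9.81 and 10.68, which overlapped.

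Other genes of the pathway were counted from lists by role, drawn up with earlier results of these data known. Of 8 interferon genes listed, 7 had a probe, among them Ifnb1, Ifna4 and Ifng, and 0 passed the background rule. At most 1 was detected on any array, so no interferon gene gave a level to compare. The counts of called genes below stand beside 26.4% higher and 30.5% lower among all genes in wild type cells, and 31.8% and 33.3% in staggerer cells. Among receptors and kinases, 1 of 7 tested genes rose in wild type cells after doxorubicin, Ifngr1, a subunit of the interferon gamma receptor (0.65, adjusted p = 0.0174). In staggerer cells 2 rose and 1 fell. Jak1, a kinase shared by both receptor types, rose there by 1.62 (adjusted p = 0.000471) and had a difference of -0.24 in wild type cells that did not pass the test.

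Sensing genes upstream of interferon rose in 4 of 6 cases in wild type cells: Mavs, the RIG-I adaptor, by 1.04, Ikbke, a kinase that activates IRF3, by 1.68, Myd88, the Toll-like receptor adaptor, by 0.99, and Trex1, an exonuclease that clears cytosolic DNA, by 1.03. In staggerer cells 1 of 6 rose and 3 fell, Tbk1, Myd88 and Trex1 by log2 changes of -1.43, -0.73 and -0.63. Of the STAT and IRF factors outside the 28 genes, 2 of 5 rose and 1 fell in wild type cells, and 4 of 5 fell in staggerer cells. Irf3, which activates the interferon beta gene, rose by 0.59 in wild type cells and fell by 0.76 in staggerer cells. Irf5 rose by 2.17 in wild type cells (adjusted p = 0.00188), with 1 of 2 untreated arrays above background. Negative feedback genes fell in 2 of 4 cases in each genotype, a count too small to set apart from the share of all genes that fell. Ptpn6, 1 of the 2 in wild type cells, had to fall there, since only the untreated wild type arrays detected it. Socs3, a suppressor of cytokine signalling, fell by 0.77 in wild type and by 2.32 in staggerer cells, and Pias1, an inhibitor of STAT signalling, had a change of -2.75 in staggerer cells (adjusted p = 1.13e-05).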

How the data were processed

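The authors deposited raw intensity on a linear scale, covering 25697 probes plus 1124 control entries (23074 blank lines were dropped), and a table of log2 values. The deposited log2 table equals quantile normalization of log2 intensity with no background correction (largest difference 5.1e-09). Array software and upstream steps: not given in the sources used here. Arrays were grouped by genotype and treatment as the labels give them.

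From the intensities, background was corrected with limma 3.58.1 in R 4.3.3 (nec, offset 16, with 1114 control entries as negative controls; another 10, brighter than the control median by over 5 median absolute deviations, were dropped), followed by quantile normalization and log2. The control entries carry no type, so their use as negative controls is an assumption. A probe counted as above background when under 0.01 of control entries reached its signal, on at least 2 of 8 arrays. Of all probes, 23978 had 1 gene symbol and 1719 were unnamed, and 715 unnamed probes stayed in the test as entries of their own. The brightest probe above background stood for its gene. Symbols are those of the platform annotation, 23962 of them matched through Entrez identifiers to RefSeq names.

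All 8 arrays entered 1 model with a mean for each group (lmFit and eBayes, 4 residual and 3.44 prior degrees of freedom), with 5 comparisons, two-sided tests and Benjamini-Hochberg adjustment over all 9340 genes. Where neither array of a group detected a gene, its difference is given as "at least N-fold", from the bright group's mean and, per array of the dim group, the higher of the lowest detected signal and its own. The number of arrays limits the precision of each value. The script was tested on simulated data. The genes and lists were chosen with earlier results of these data known. Full tests are given for the 6 genes with the smallest p in each comparison and for Irf1, Irf7, Irf9, Stat2, Usp18 and Isg15, and other genes by levels, changes and counts. Alternatives were no background correction, median centring, no between-array normalization, the authors' log2 table, no background rule, detection on all 8 arrays, a gene's mean over probes, eBayes with trend and robust settings, a tested fold of at least 1.5, the replicate number as a block, the compared arrays alone and each array left out in turn. Leaving out both staggerer doxorubicin arrays was added after the data were seen. Replicate numbers did not pair the arrays, as same-numbered arrays had deviations that correlated between -0.03 and 0.03. The replicate number was therefore not used as a block in the tests given.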

Additional observations from a re-analysis of the deposited data

Results flagged for a closer look

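The response to doxorubicin differed between staggerer and wild type cells for 20 of the 28 genes by the interaction test of limma. The value is the log2 change in staggerer cells minus that in wild type cells. The regulators among them were Usp18 at -1.26, Irf7 at -2.38, Irf1 at -1.22 and Stat2 at -0.96, with Isg15 at -1.09. Of the IFIT and OAS genes, Ifit3 was at -2.03 and Oasl2 at -1.37, and of the sensors Dhx58 was at -1.17 and Adar at -0.78. The GTPases gave -2.48 for Igtp, -2.04 for Gbp3, -1.18 for Mx2 and -0.61 for Irgm1. The other effectors gave -2.40 for Ifi35, -2.29 for Samd9l, -2.20 for Parp14, -1.74 for Rsad2, -1.02 for Cmpk2 and -0.55 for Ifitm3, and Bst2 had the opposite sign at 1.60. For Irf7, Dhx58, Mx2, Cmpk2, Rsad2 and Oasl2, which were below background in both staggerer groups, and for Igtp and Stat2, which were below background on both staggerer arrays after doxorubicin, these are fitted values and no measured difference. For Samd9l the larger part of the difference was a fall in staggerer cells, whereas for Gbp3 and Ifi35 it was a rise in wild type cells.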

How the results depend on the processing

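Of the calls over the alternatives other than the 1.5-fold test, 14 of 19 rises and 1 of 3 falls in wild type cells after doxorubicin held in each setting run. So did 3 of 7 rises and 4 of 9 falls in staggerer cells, 1 of 1 higher and 4 of 11 lower genes between untreated genotypes, 0 of 2 higher and 17 of 22 lower genes between treated genotypes, and 0 of 1 higher and 12 of 19 lower genes in the interaction. Detection on all 8 arrays, with 19 genes left to test, gave 12 rises in wild type cells, 2 higher and 7 lower genes between untreated genotypes, 13 lower genes between treated genotypes and 10 in the interaction. A tested fold of at least 1.5 gave 1 fall in wild type cells, 3 rises and 2 falls in staggerer cells, 4 lower genes between untreated genotypes, 0 higher between treated genotypes, and 0 higher and 12 lower in the interaction. Median centring gave 16 rises in staggerer cells, 4 higher genes between treated genotypes and 3 in the interaction. No between-array normalization gave 3 rises in staggerer cells, 17 lower genes between untreated genotypes and 0 higher between treated genotypes, and turned Isg15 in staggerer cells to -0.14. The share of higher genes among all called genes went from 46.4% to 30.5% in wild type cells and from 51.6% to 11.7% between untreated genotypes with no normalization, and in the interaction from 45% to 60.6% with median centring and 28.5% with none. No background rule gave 7 lower genes between untreated and 1 higher between treated genotypes, the mean of a gene's probes 2 higher in the interaction, and the 4 compared arrays alone 1 higher between treated genotypes. No background correction, the authors' table, and leaving out both staggerer doxorubicin arrays (chosen after seeing the data) each gave 2 higher genes between untreated genotypes. Leaving out each array in turn gave 16 to 20 rises and 1 to 4 falls in wild type cells, 6 to 7 and 5 to 8 in staggerer cells, 1 to 2 higher and 4 to 12 lower between untreated genotypes, 1 to 2 and 21 to 22 between treated genotypes, and 0 to 1 and 14 to 19 in the interaction. With the replicate number as a block, 19 genes rose and 3 fell in wild type cells, 7 and 8 in staggerer cells, 1 was higher and 10 lower between untreated genotypes, 2 and 22 between treated genotypes, and 1 and 18 in the interaction, but the numbers share no known pairing. The causes were not tested. The dim staggerer doxorubicin arrays limit what can be measured there.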

Other observations

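Several genes had other probes above background whose values lay far from those of the brightest probe. The second probe of Irgm1 gave log2 changes of 1.19 in wild type and -0.97 in staggerer cells, with an interaction of -2.16 in place of -0.61. A dimmer Adar probe, below background on both staggerer doxorubicin arrays, gave -1.10 in staggerer cells, where the brightest gave 0.37. Its interaction of -2.41 is likewise a fitted value and no measured difference. The second Irf9 probe, below background on both staggerer doxorubicin arrays, gave -1.66 in staggerer cells in place of -0.86, and -0.10 in wild type cells in place of -0.53. For Ifit2 the second probe gave -0.05 in staggerer cells in place of -0.72. Gbp3 had a second probe at 2.68 in wild type and 0.96 in staggerer cells. The 3 Tor3a probes lay between 1.25 and 1.5 in wild type and between 1.36 and 1.72 in staggerer cells. Which transcript forms these probes read was not determined.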
